A study of Mus musculus with 93 samples.

Results

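The 9 post-squalene cholesterol synthesis enzymes Sqle, Lss, Cyp51, Tm7sf2, Msmo1, Nsdhl, Hsd17b7, Sc5d and Dhcr7 were followed in livers of 7 mouse strains on 2 diets. They were the rows of the count table whose Ensembl identifiers map to these symbols, 9 of 53465 genes in all, and all 9 were among the 19110 genes that passed the filter on low counts. The data were liver RNA-seq of 93 male mice of 7 inbred strains, the wild-derived WSB/EiJ, CAST/EiJ and PWK/PhJ and the laboratory strains A/J, C57BL/6J, DBA/2J and 129S1/SvImJ. CAST/EiJ is of the castaneus subspecies, PWK/PhJ of musculus and the other strains of domesticus, and none carries an engineered allele. All mice were moved to 30°C, which is thermoneutrality (TN) for mice, at 6 wk of age. From 7 wk they received for 17 wk either a western-style diet (WD), with 40% of energy from fat, 17% from protein and 43% from carbohydrate, or a matched control diet (CD), with 10%, 17% and 73%. The groups on CD and WD held 8 and 8 C57BL/6J mice, 7 and 8 CAST/EiJ, 7 and 6 129S1/SvImJ, 6 and 7 PWK/PhJ, 6 and 7 DBA/2J, 6 and 6 WSB/EiJ, and 5 and 6 A/J. The question was how far the diet and the genetic background set the level of each enzyme.

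Cells build cholesterol in the endoplasmic reticulum. An early route runs from acetyl-CoA through mevalonate to squalene, and a later route oxidises squalene, closes it into lanosterol and trims lanosterol to cholesterol. The genes of both routes are classical targets of SREBP2, a membrane-bound transcription factor that Scap carries to the Golgi for cleavage when sterol is low and that Insig proteins hold back when sterol is high. The liver is a main site of this synthesis and also takes up sterol from lipoproteins.

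The genes lie on 9 chromosomes. In GRCm38, Sqle spans chr15:59315077-59331192, Lss chr10:76531588-76557138, Cyp51 chr5:4081145-4104746, Tm7sf2 chr19:6062821-6068373, Msmo1 chr8:64718139-64733792, Nsdhl chrX:72918557-72958514, Hsd17b7 chr1:169949535-169969241, Sc5d chr9:42251595-42264256 and Dhcr7 chr7:143823145-143848410. Counts were of reads over exons. Tm7sf2 shares 532 exonic bases with Vps51 on the same strand, Cyp51 shares 166 with Akap9 on the opposite strand, and Lss shares 381 with the antisense gene 4930483K19Rik. Whether strand was used in counting is not given in the sources used here, so reads in the shared stretches cannot be told apart.

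RefSeq start windows (GRCm38.p6) were on hand for all members but Sqle. In the 250 bases before the start, each of the 8 members with a window had the letters CCAAT and the letters GGGCGG on either strand in at least 1 of its windows, against 37.5% and 35.4% of all 27025 genes with a window. Per window, 8 and 9 of the 10 member windows held them, against 33.8% and 32.7% of all 32851 windows. Dhcr7 had 3 windows, of which 1 held CCAAT, and the other members had 1 each. The sterol regulatory letters TCACNCCA, which 3.67% of all windows held, were found only for Msmo1, and the longer form TCACNCCAC, which contains them and was in 1.05% of windows, for none of the 8. Such a match describes the letters in this window and is not a measured site. The windows of 4 members are shown because Cyp51 and Msmo1 had the most unequal diet effects between strains, Hsd17b7 moved least with the others from mouse to mouse, and Sc5d had the smallest median fall. They read 5′ to 3′ on the gene's strand, with all matches on either strand in capitals. No matches overlapped. Cyp51 is at chr5:4104698-4104947 on the minus strand, Msmo1 at chr8:64733579-64733828 on the minus strand, Hsd17b7 at chr1:169969206-169969455 on the minus strand and Sc5d at chr9:42264301-42264550 on the minus strand.
Cyp51: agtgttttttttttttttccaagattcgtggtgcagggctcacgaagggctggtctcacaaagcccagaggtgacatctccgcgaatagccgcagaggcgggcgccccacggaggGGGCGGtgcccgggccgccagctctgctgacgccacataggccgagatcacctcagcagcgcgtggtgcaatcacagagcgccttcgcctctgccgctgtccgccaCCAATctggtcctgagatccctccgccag
Msmo1: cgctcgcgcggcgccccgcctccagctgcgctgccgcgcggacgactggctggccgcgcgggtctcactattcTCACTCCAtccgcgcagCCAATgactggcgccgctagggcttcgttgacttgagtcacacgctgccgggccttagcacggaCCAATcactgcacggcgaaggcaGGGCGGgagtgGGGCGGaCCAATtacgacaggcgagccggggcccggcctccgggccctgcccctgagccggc
Hsd17b7: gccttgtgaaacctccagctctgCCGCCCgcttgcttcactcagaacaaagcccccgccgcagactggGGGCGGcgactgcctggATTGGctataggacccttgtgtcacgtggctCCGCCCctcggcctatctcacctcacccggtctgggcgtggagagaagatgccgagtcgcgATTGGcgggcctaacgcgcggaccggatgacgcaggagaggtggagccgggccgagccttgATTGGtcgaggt
Sc5d: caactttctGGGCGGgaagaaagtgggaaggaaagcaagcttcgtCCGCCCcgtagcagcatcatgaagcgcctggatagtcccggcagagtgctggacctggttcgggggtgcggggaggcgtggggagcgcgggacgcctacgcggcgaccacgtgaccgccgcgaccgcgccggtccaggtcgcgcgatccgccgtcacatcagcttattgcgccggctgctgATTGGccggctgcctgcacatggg

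Depth was even, with 40020424 to 49894856 reads on genes per mouse, and the members had between 163 and 43560 reads in a mouse. Levels are given as CPM, counts scaled to the size of the library, after scaling by trimmed mean of M values (TMM). The tissue label held, since all 10 hepatocyte markers were detected and summed to between 72579.8 and 220772 CPM. A few libraries stood apart. C57BL/6J CD replicate 2 and C57BL/6J WD replicate 3 lay 0.374 and 0.290 log2 units from the rest of their groups (median over genes). The median over all libraries was 0.169. PWK/PhJ CD replicate 5 had Kupffer cell markers summing to 34.1 CPM, against 142 to 256 in its group. CAST/EiJ CD replicates 4 and 5 lay close to the second of these distances, at 0.277 and 0.268, and were not among the 3 libraries left out below. Reads were mapped to the C57BL/6J genome, and the unmapped fraction of a library, as a group mean, ran from 2.11% in A/J on WD to 13.3% in CAST/EiJ on WD. It also differed between the diets, from 3.50% on CD to 7.88% on WD in PWK/PhJ, from 4.52% to 7.42% in WSB/EiJ and from 10.8% to 13.3% in CAST/EiJ, and the other way in DBA/2J, from 6.45% to 4.77%. Its part in levels compared between strains or diets was not tested.

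WD-TN lowered the RNA of nearly every enzyme in every strain, and protein was not examined here. At an adjusted p below 0.05 (limma-voom, Benjamini-Hochberg over all genes tested), 61 of 63 gene and strain pairs were called lower on WD and none higher. The pairs not called were Msmo1 in DBA/2J and Hsd17b7 in WSB/EiJ. All 9 members were lower in C57BL/6J, where 11.9% of all genes were, in A/J (4.64%), in 129S1/SvImJ (13.6%), in CAST/EiJ (9.73%) and in PWK/PhJ (14.5%). In DBA/2J 8 were lower, against 7.77% of all genes, and in WSB/EiJ 8, against 3.97%. The median log2 fold change of the members was lowest in CAST/EiJ (-1.84), followed by C57BL/6J (-1.65), PWK/PhJ (-1.64), WSB/EiJ (-1.59), A/J (-1.02), 129S1/SvImJ (-0.95) and DBA/2J (-0.76), while the median over all genes lay between -0.01 and 0.02.

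In 54 of the 63 pairs every WD-TN mouse was below every CD-TN mouse. This held for 8 members in C57BL/6J, where 0.973% of all genes showed it, 4 in DBA/2J (2.6%), 9 in A/J (3.94%), 9 in 129S1/SvImJ (7.18%), 8 in WSB/EiJ (1.86%), 8 in CAST/EiJ (1.28%) and 8 in PWK/PhJ (6.02%). With the 3 libraries that stood apart left out, the members called lower were as many as before in 6 strains, and 9 in place of 8 in WSB/EiJ, where Hsd17b7 then had an adjusted p of 0.036. Fewer hepatocytes and less of these RNAs per hepatocyte cannot be told apart in whole liver. Hepatocyte markers also fell. Of 10, 8 were lower on WD in 129S1/SvImJ (13.6% of all genes), 7 in PWK/PhJ (14.5%), 5 in C57BL/6J (11.9%) and 4 in A/J (4.64%). Those lower numbered 3 in DBA/2J (7.77%), 3 in WSB/EiJ (3.97%) and 2 in CAST/EiJ (9.73%). The median log2 fold change of the 10 was between -0.58 (PWK/PhJ) and -0.19 (WSB/EiJ), smaller than that of the members in every strain. Its part in the members' fall was not tested.

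**Figure D1:**
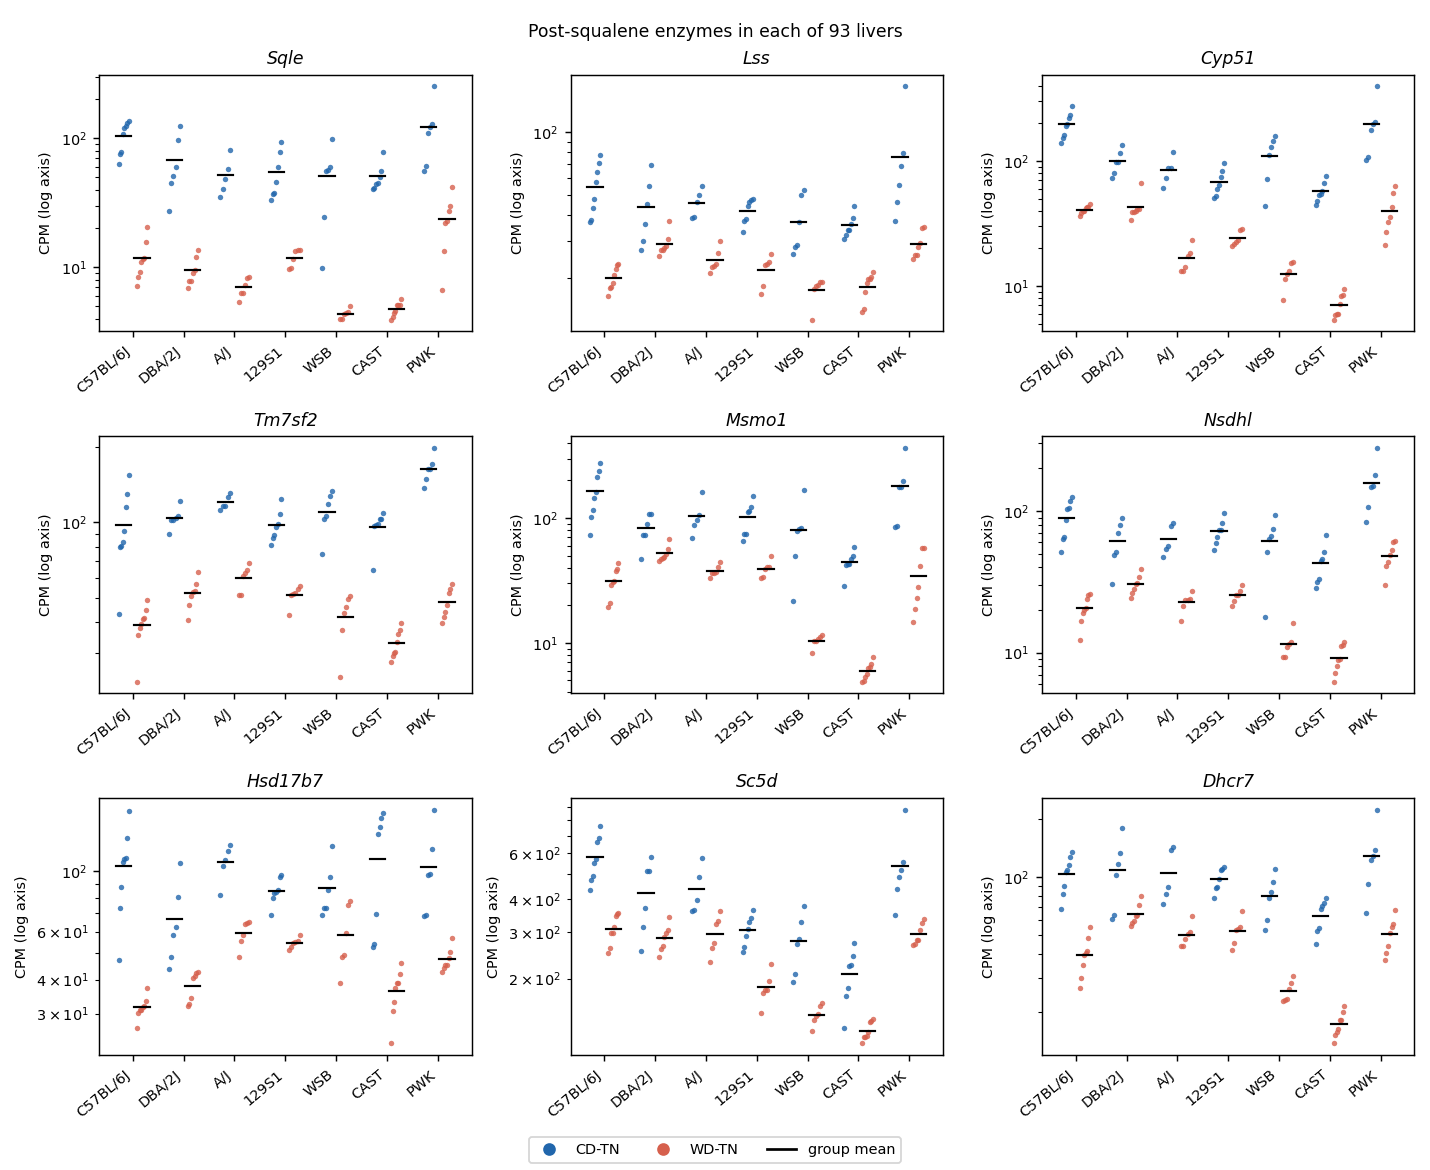
Level of each post-squalene enzyme in CPM (log axis) in every mouse by strain, with CD-TN in blue, WD-TN in red and group means as black bars. Red points lie under all blue points in 54 of 63 pairs, and DBA/2J shows the most overlap, with 4 of 9 members separated.

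Sqle, squalene epoxidase, performs the first oxygen-requiring step and is a known control point of the pathway. It had the largest fall of the 9 in 6 strains, and in PWK/PhJ it came after Msmo1 (-2.37 and -2.39 on the log2 scale). In CAST/EiJ it ran from 40.7 through a median of 44.8 to 78.7 CPM on CD-TN and from 3.93 through 4.82 to 5.69 CPM on WD-TN, a log2 fold change of -3.39 ± 0.39 (SE; adjusted p = 1.8e-10). In C57BL/6J the lowest, median and highest mice had 63.4, 114 and 136 CPM on CD-TN and 7.10, 11.2 and 20.5 CPM on WD-TN (-3.15 ± 0.30). The 5 A/J mice on CD-TN had 34.8, 40.3, 48.4, 57.5 and 80.4 CPM and the WD-TN mice between 5.35 and 8.42 CPM. The diets did not overlap in any of the 7 strains. Mean levels on WD-TN were 8.57% of those on CD-TN in WSB/EiJ, at the low end, and 21.5% in 129S1/SvImJ, at the high end. Among all 19110 genes ordered by log2 fold change, Sqle held ranks from 8 to 35, counted from the largest fall.

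In PWK/PhJ the WD-TN mice spread widely for Sqle, from 6.67 through 22.9 to 42.2 CPM, with mean levels of 33.3 CPM in cohort 1 and 16.2 CPM in cohort 2. The CD-TN mice of that strain ran from 55.5 to 253 CPM, so the groups were still apart. In WSB/EiJ, CD replicate 1 had 9.85 CPM of Sqle where the median of its group was 56.4, and it was the lowest of its group for 8 of the 9 members. Without that mouse the log2 fold change of Sqle in WSB/EiJ was -3.64 in place of -3.23.

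Lss, lanosterol synthase, closes oxidised squalene into the first sterol ring system. It fell by less, between -0.52 ± 0.18 in DBA/2J and -1.40 ± 0.17 in C57BL/6J on the log2 scale. In C57BL/6J it ran from 37.2 through 52.7 to 77.6 CPM on CD-TN and from 16.5 through 19.8 to 23.4 CPM on WD-TN. In DBA/2J it ran from 27.3 through 40.8 to 69.5 CPM on CD-TN and from 25.7 through 27.9 to 37.4 CPM on WD-TN. Only 2 of 7 DBA/2J mice on WD-TN were below all CD-TN mice there, and the adjusted p was 0.036. That call was lost when any 1 of 8 mice of the 13 was left out, with an adjusted p of up to 0.17 without CD replicate 5, and it was lost with no filter on low counts (adjusted p = 0.11).

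Cyp51, lanosterol demethylase and the target of the azole antifungals in yeast, fell in all 7 strains without overlap between the diets. In WSB/EiJ it ran from 43.8 through 120.1 to 159 CPM on CD-TN and from 7.73 through 12.9 to 15.5 CPM on WD-TN, a log2 fold change of -3.04 ± 0.25 (adjusted p = 6.4e-17). In CAST/EiJ it ran from 44.4 through 54.6 to 75.8 CPM on CD-TN and from 5.39 through 6.59 to 9.56 CPM on WD-TN (-3.02 ± 0.25). In DBA/2J, where its fall was smallest, it ran from 72.8 through 99.0 to 133 CPM on CD-TN and from 34.1 through 40.2 to 67.2 CPM on WD-TN (-1.21 ± 0.21, adjusted p = 7.2e-06). The WD-TN means were 11.4% of the CD-TN means in WSB/EiJ, 12.4% in CAST/EiJ and 43.2% in DBA/2J.

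Tm7sf2, the sterol reductase that acts after Cyp51, fell most in PWK/PhJ. There it ran from 138 through 164 to 199 CPM on CD-TN and from 39.8 through 46.8 to 56.5 CPM on WD-TN (-1.78 ± 0.15, adjusted p = 4.2e-16). The smallest fall was in 129S1/SvImJ, with means of 97.7 ± 14.8 CPM on CD-TN (SD, n = 7) and 51.4 ± 4.6 CPM on WD-TN (n = 6), a log2 fold change of -0.92 ± 0.15. In C57BL/6J the diets overlapped through CD replicate 2, which had 42.9 CPM where the highest WD-TN mouse had 48.9. That is 1 of the libraries that stood apart.

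Msmo1, Nsdhl and Hsd17b7 encode the oxidase, the decarboxylating dehydrogenase and the ketoreductase that remove the paired methyl groups of the sterol ring, and they split in their response. Msmo1 had the widest range. In CAST/EiJ it ran from 28.5 through 42.6 to 59.0 CPM on CD-TN and from 4.90 through 5.91 to 7.70 CPM on WD-TN (-2.88 ± 0.33, adjusted p = 2.5e-10). In DBA/2J it ran from 46.8 through 81.8 to 108 CPM on CD-TN and from 45.0 through 48.8 to 67.9 CPM on WD-TN, with 2 of 7 WD-TN mice below all CD-TN mice. That difference did not pass the test (-0.63 ± 0.27, adjusted p = 0.096), although a separate fit of DBA/2J alone gave an adjusted p of 0.011 and voom with sample weights 0.0498. Without CD replicate 2, which was the lowest of its group for 7 of 9 members, it was 0.045.

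Nsdhl fell in all strains, most in WSB/EiJ (-2.28 ± 0.27) and CAST/EiJ (-2.20 ± 0.25), and least in DBA/2J (-0.95 ± 0.23, adjusted p = 0.0013). In WSB/EiJ it ran from 17.9 through 65.2 to 93.4 CPM on CD-TN and from 9.26 through 11.3 to 16.2 CPM on WD-TN. In PWK/PhJ its CD-TN mean was 158 ± 68.2 CPM (SD, n = 6), against 61.4 ± 25.5 CPM in WSB/EiJ (n = 6). The diets overlapped in DBA/2J, where 4 of 7 WD-TN mice were below all CD-TN mice.

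Hsd17b7 followed another order of strains. Its fall was largest in C57BL/6J, from a range of 47.3 through 109 to 166 CPM on CD-TN to 26.7 through 31.3 to 37.4 CPM on WD-TN (-1.65 ± 0.18, adjusted p = 2.4e-11). In CAST/EiJ the CD-TN mice ran from 52.7 through 137 to 164 CPM and the WD-TN mice from 23.3 through 38.0 to 45.9 CPM (-1.49 ± 0.19). In WSB/EiJ, one of the 2 strains with the deepest falls of Cyp51, Msmo1 and Nsdhl, it ran from 68.8 through 79.2 to 124 CPM on CD-TN and from 38.9 through 54.3 to 77.8 CPM on WD-TN, with 4 of 6 WD-TN mice below all CD-TN mice. That difference did not pass the test (-0.59 ± 0.21, adjusted p = 0.058), and it passed with DESeq2's Wald test (adjusted p = 0.044), with at least 10 counts required in every mouse (0.046) and with sample weights (0.025).

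Sc5d, the desaturase that acts near the end of the route, and Dhcr7, the reductase whose product is cholesterol itself, closed the series. Sc5d had the highest counts of the 9 and the most even response. In C57BL/6J it ran from 435 through 560.4 to 760.1 CPM on CD-TN and from 251 through 307 to 357 CPM on WD-TN (-0.89 ± 0.14, adjusted p = 3.5e-07). In DBA/2J it ran from 256 through 442 to 579 CPM on CD-TN and from 241 through 288 to 342 CPM on WD-TN (-0.52 ± 0.15, adjusted p = 0.0084), with 1 of 7 WD-TN mice below all CD-TN mice. The WD-TN means were between 52.7% (WSB/EiJ) and 67.8% (A/J) of the CD-TN means. The call in A/J (adjusted p = 0.019) was lost without CD replicate 1 (0.10), CD replicate 2 (0.060) or WD replicate 3 (0.063).

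Dhcr7 fell most in CAST/EiJ, from 45.4 through 68.0 to 77.9 CPM on CD-TN to 13.8 through 17.3 to 21.6 CPM on WD-TN (-1.84 ± 0.18, adjusted p = 8.7e-13). In DBA/2J it ran from 60.7 through 109.6 to 180.03 CPM on CD-TN and from 56.1 through 63.1 to 80.3 CPM on WD-TN (-0.66 ± 0.18, adjusted p = 0.0065). The DBA/2J diets overlapped, with 3 of 7 WD-TN mice below all CD-TN mice, and the call was lost without CD replicate 5 (adjusted p = 0.053), which together with Lss left 6 members called in DBA/2J. In PWK/PhJ a single WD-TN mouse, at 67.6 CPM, reached above the lowest CD-TN mouse, at 65.6 CPM.

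**Figure D2:**
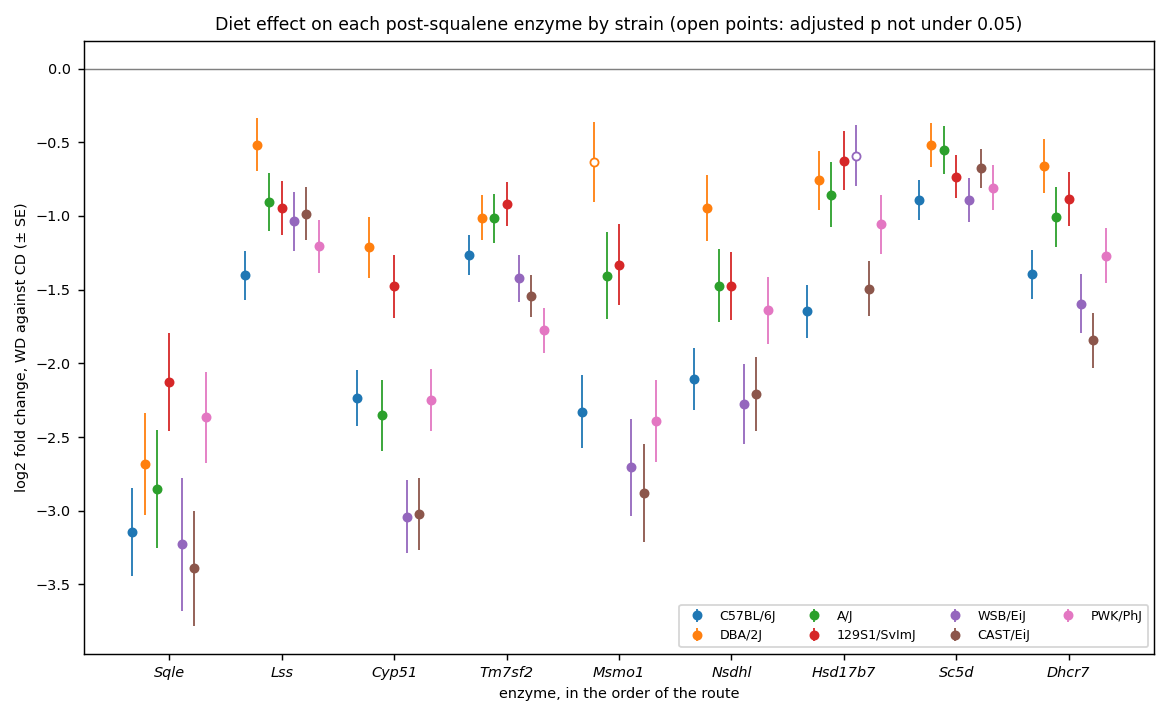
Log2 fold change of each enzyme, WD against CD, in each strain (points) with its SE (bars), where filled points have an adjusted p below 0.05. The open points are Msmo1 in DBA/2J (-0.63) and Hsd17b7 in WSB/EiJ (-0.59). Sqle runs between -3.39 and -2.13 and is the lowest member in 6 strains, while in PWK/PhJ Msmo1 is lower.

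The size of the diet effect differed between strains for 6 of the 9 enzymes. In an F test over the 7 diet effects, which called 37.5% of all genes, the adjusted p was 1.9e-06 for Cyp51, 8.2e-06 for Msmo1, 0.0014 for Dhcr7, 0.0022 for Hsd17b7, 0.0033 for Nsdhl and 0.0043 for Tm7sf2. It was 0.14 for Sqle, 0.075 for Lss and 0.53 for Sc5d. Sqle passed without WSB/EiJ CD replicate 1 (0.030) or PWK/PhJ WD replicate 6 (0.046). Lss passed with cohort in the fit (0.048) and without any 1 of 6 mice, with 0.022 without DBA/2J CD replicate 5. The SEs of Sqle were the widest of the members, between 0.30 and 0.45 on the log2 scale, so smaller differences between strains were less visible there than for Sc5d, where they were between 0.13 and 0.16.

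DBA/2J responded less than the mean of the other 6 strains for 4 members. The difference in log2 fold change was 1.54 ± 0.30 for Msmo1 (adjusted p = 0.00033), 1.18 ± 0.23 for Cyp51 (0.00033), 0.92 ± 0.25 for Nsdhl (0.012) and 0.67 ± 0.20 for Dhcr7 (0.026), where 7.77% of all genes were called. Without CD replicate 2 of that strain 2 of the 4 were called, Nsdhl then having an adjusted p of 0.062 and Dhcr7 of 0.11. Dhcr7 was also lost without CD replicate 3 (0.098) or WD replicate 5 (0.051). For Msmo1 the DBA/2J mean was 83.1 ± 23.3 CPM on CD-TN (SD, n = 6), 5th of the 7 strains, and 52.1 ± 7.93 CPM on WD-TN (n = 7), the highest.

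CAST/EiJ responded more than the mean of the others for 4 members, where 14.5% of all genes were called. The difference was -1.08 ± 0.35 for Msmo1 (adjusted p = 0.027), -0.93 ± 0.26 for Cyp51 (0.0095), -0.71 ± 0.20 for Dhcr7 (0.0090) and -0.57 ± 0.21 for Hsd17b7 (0.047). The call of Hsd17b7 was lost with RIN (0.066) or cohort (0.12) in the fit and when any 1 of 35 of the 93 mice was left out. WSB/EiJ had falls of like size for Cyp51 (-3.04 against -3.02 in CAST/EiJ), and its difference from the other strains, -0.95 ± 0.26, had an adjusted p of 0.051, so that none of the 9 was called there (0.947% of all genes). With edgeR, RIN, cohort, the stricter filter or the 3 libraries left out, 1 member was called in WSB/EiJ, and without WSB/EiJ CD replicate 1 there were 3.

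Each of the other strains differed for at most 1 member in this fit, and with sample quality weights 129S1/SvImJ differed for 4. C57BL/6J had a larger fall of Hsd17b7 (-0.75 ± 0.20, adjusted p = 0.015, 4.69% of all genes called), 129S1/SvImJ a smaller fall of Cyp51 (0.88 ± 0.23, adjusted p = 0.012, 6.28%), PWK/PhJ a larger fall of Tm7sf2 (-0.58 ± 0.17, adjusted p = 0.0093, 16.3%) and A/J none (0.466%). In 129S1/SvImJ 2 members were called with the 3 libraries that stood apart left out, and 2 without C57BL/6J CD replicate 2. In C57BL/6J 2 were called without PWK/PhJ CD replicate 3. With no filter beyond any count, 8 of the 11 calls of single strains were lost, those left being Cyp51 and Msmo1 in DBA/2J and Tm7sf2 in PWK/PhJ.

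Levels also differed between strains on each diet. All 9 members passed the F test on CD-TN and all 9 on WD-TN, but so did 93.7% and 93.9% of all genes. No cohort held all strains, and WSB/EiJ shared no cohort with another strain. Strain and cohort therefore cannot be fully told apart in these levels, and cohort was not in this test. On CD-TN, PWK/PhJ had the highest mean for 7 members, C57BL/6J for Sc5d (579 ± 114 CPM) and CAST/EiJ for Hsd17b7 (111 ± 50.1 CPM). CAST/EiJ had the lowest mean for the other 8 members. The PWK/PhJ CD-TN group held replicate 3, the highest of all 93 mice for each of the 9 members, with 253 CPM of Sqle, 397 CPM of Cyp51 and 364 CPM of Msmo1. Without that mouse, left out after seeing the data, PWK/PhJ had the highest mean for 4 members, and C57BL/6J was above it for Sqle (105 against 95.7 CPM), Cyp51 (197 against 158 CPM) and Msmo1 (166 against 145 CPM).

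On WD-TN the strains were spread more widely than on CD-TN for 7 of the 9 members, a count that was not made over all genes. Msmo1 spanned 4.09-fold between strain means on CD-TN, from 182 ± 102 CPM in PWK/PhJ to 44.4 ± 9.23 CPM in CAST/EiJ, and 8.71-fold on WD-TN, from 52.1 ± 7.93 CPM in DBA/2J to 5.98 ± 0.970 CPM in CAST/EiJ. Cyp51 spanned 3.46-fold and 6.09-fold, and Sqle 2.4-fold and 5.37-fold. Lss (2.12-fold and 1.66-fold) and Sc5d (2.79-fold and 2.44-fold) went the other way.

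The order of strains on WD-TN for Msmo1 was DBA/2J, 129S1/SvImJ, A/J, PWK/PhJ, C57BL/6J, WSB/EiJ and CAST/EiJ. Neighbours in such an order mostly overlapped. Of 108 neighbouring pairs over genes and diets, 5 were apart, where 6% of such pairs were over all genes tested, so the members were near the background. They were C57BL/6J above WSB/EiJ and WSB/EiJ above CAST/EiJ for Msmo1 on WD-TN, PWK/PhJ above A/J for Tm7sf2 on CD-TN, DBA/2J above 129S1/SvImJ for Sc5d on WD-TN, and WSB/EiJ above CAST/EiJ for Dhcr7 on WD-TN. Mice on CD-TN varied more among themselves for these genes, with a larger coefficient of variation than on WD-TN in 50 of 63 pairs. This count was not made over all genes, and single extreme mice such as PWK/PhJ CD replicate 3 and WSB/EiJ CD replicate 1 enter it.

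Compared per length of transcript, Sc5d was highest and Lss lowest on CD-TN by the median over strains. The strain means of Sc5d were between 42.7 and 119 CPM per kb of exon on CD-TN, those of Tm7sf2 between 56.8 and 96.8, those of Msmo1 between 21.7 and 88.9 and those of Lss between 7.66 and 16.2. On WD-TN Sqle took the lowest place, with 1.59 to 8.52 CPM per kb, and Sc5d kept the highest, with 26.1 to 63.7. These lengths are of the exons of basic GENCODE transcripts. With the exons of all annotated transcripts the ranks of Sc5d, Tm7sf2, Sqle and Lss on each diet stayed, whereas Msmo1 moved from rank 3 to 7 on CD-TN.

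**Figure D3:**
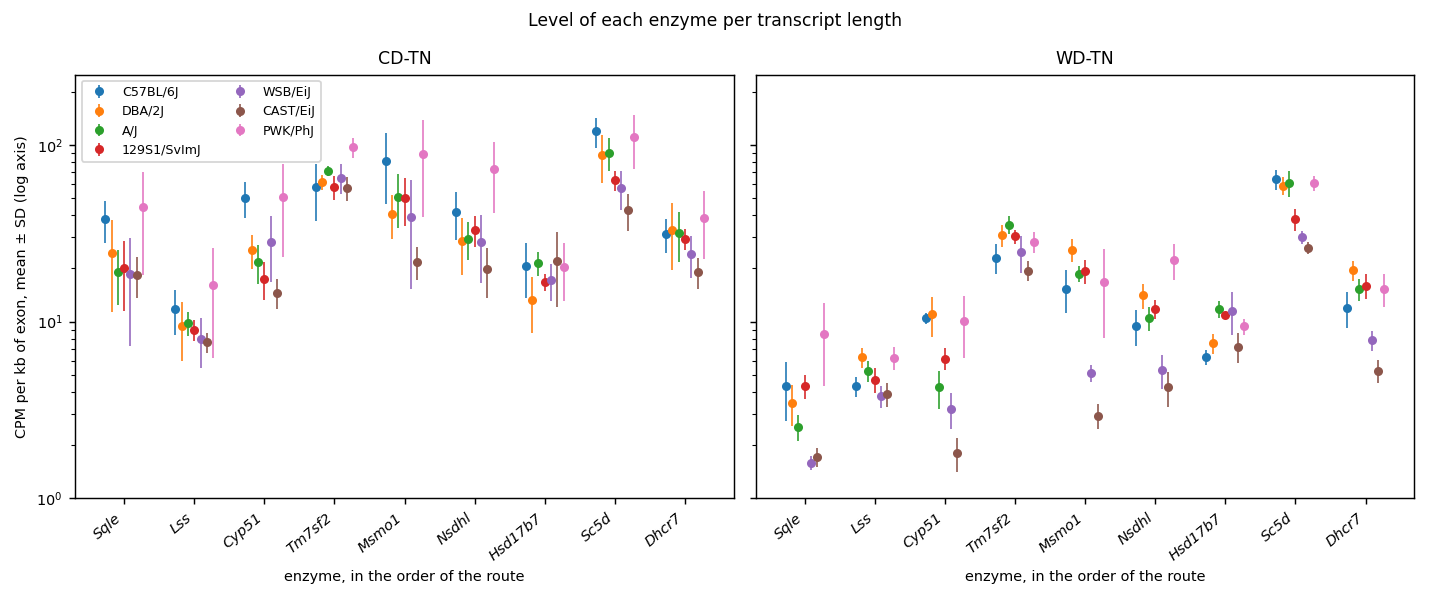
Level of each enzyme in CPM per kb of exon (log axis), mean (points) ± SD (bars) over the mice of each strain, with CD-TN on the left and WD-TN on the right. Sc5d is highest on both diets by its median over strains, and on WD-TN Sqle, Cyp51 and Msmo1 spread over the strains most, with CAST/EiJ and WSB/EiJ at the bottom.

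Mice of each strain came from 2 cohorts (3 in CAST/EiJ), and every cohort held both diets. Within the 15 sets of mice of 1 strain and cohort, the mean log2 CPM was lower on WD-TN for 9 members in each set, 135 of 135 differences, from -3.71 to -0.13. The share over all genes was not computed, and the members vary together, so these differences are not independent. The differences varied between cohorts of a strain. In A/J, Sc5d was lower by -0.96 in cohort 2 (2 and 4 mice on CD-TN and WD-TN) and by -0.13 in cohort 3 (3 and 2 mice). In DBA/2J, Lss was lower by -0.27 in cohort 4 and by -0.74 in cohort 5, and Hsd17b7 by -1.07 and -0.40. Some sets were small, CAST/EiJ cohort 1 having 1 mouse on CD-TN.

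**Figure D4:**
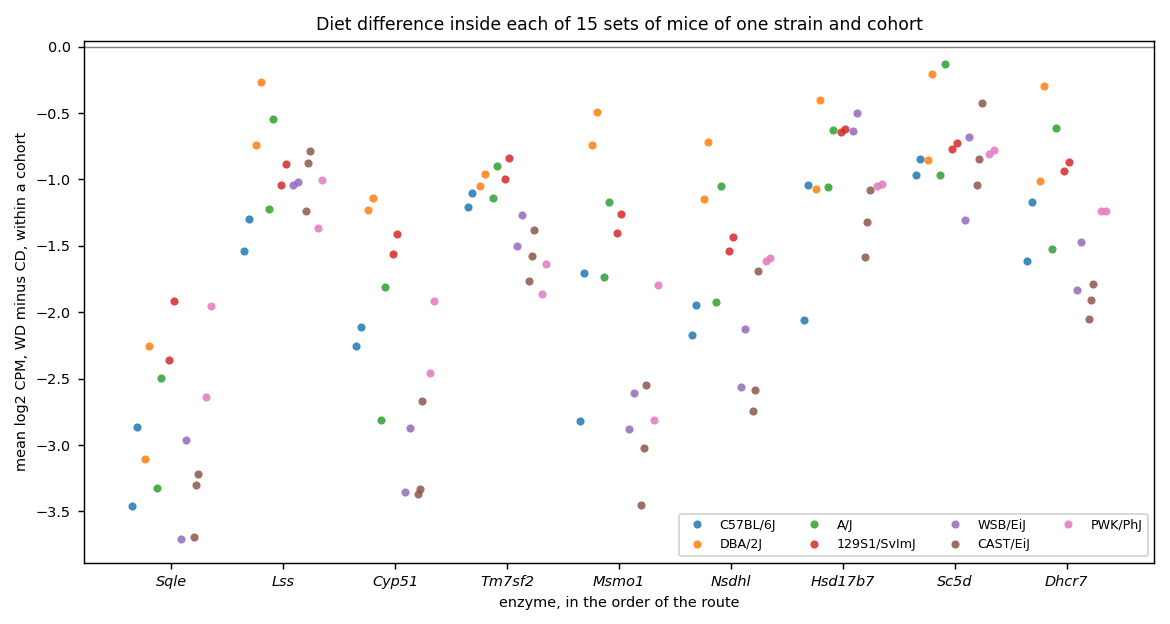
Mean log2 CPM on WD minus that on CD for each enzyme within each of the 15 sets of mice of one strain and cohort (points, coloured by strain). All 135 points lie below 0, the lowest at -3.71 and the highest at -0.13.

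The enzymes also varied together from mouse to mouse. After the mean of each strain and diet group was taken off, Pearson's r of log2 CPM between 2 members over the 93 mice had a median of 0.64 over 36 pairs, with 0.81 at the top (Sqle and Msmo1) and 0.11 at the bottom (Hsd17b7 and Sc5d). Hsd17b7 had the lowest mean r with the other members (0.27), followed by Tm7sf2 (0.42), and Nsdhl the highest (0.67). These values share libraries and depth and are given as a description. Extreme mice such as PWK/PhJ CD replicate 3 and WSB/EiJ CD replicate 1 enter them, and r was not computed without those mice. Over the 14 group means r was between 0.49 (Hsd17b7 and Sc5d) and 0.98 (Msmo1 and Dhcr7).

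The genes outside the members that varied most like them over mice were 5 enzymes of the mevalonate route, Idi1 (mean r 0.69), Mvd (0.68), Hmgcs1 (0.67), Pmvk (0.62) and Fdft1 (0.61). Over the 14 group means, those most alike included Idi1 (0.91), Rdh11 (0.88), Gm43031 (0.87) and Acly (0.87). Idi1, isopentenyl diphosphate isomerase, had the highest mean r by both measures.

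The mevalonate enzymes upstream fell less evenly. Of 9 genes from Acat2 to Fdft1, all 9 were lower on WD in PWK/PhJ (14.5% of all genes), C57BL/6J (11.9%) and 129S1/SvImJ (13.6%). Those lower numbered 8 in WSB/EiJ (3.97%), 7 in CAST/EiJ (9.73%), 5 in A/J (4.64%) and 2 in DBA/2J (7.77%). The largest median changes over strains were those of Idi1 (-2.46), Fdps, farnesyl diphosphate synthase (-1.91), and Mvd, mevalonate diphosphate decarboxylase (-1.87). In WSB/EiJ, Idi1 fell from 21.8 ± 12.0 CPM (SD, n = 6) to 1.12 ± 0.386 CPM (n = 6). In DBA/2J only Idi1 (-1.39) and Pmvk (-0.85) passed the test, where 8 of the 9 post-squalene members did. Median log2 fold changes there were -0.56 for the mevalonate list and -0.76 for the members.

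Outside the 9 members, Ebp, the sterol isomerase between the Hsd17b7 and Sc5d steps, fell in 6 strains, by -1.05 in PWK/PhJ and by between -0.19 and -0.34 in the other 5. In DBA/2J it was at -0.09, which did not pass the test.

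**Figure D5:**
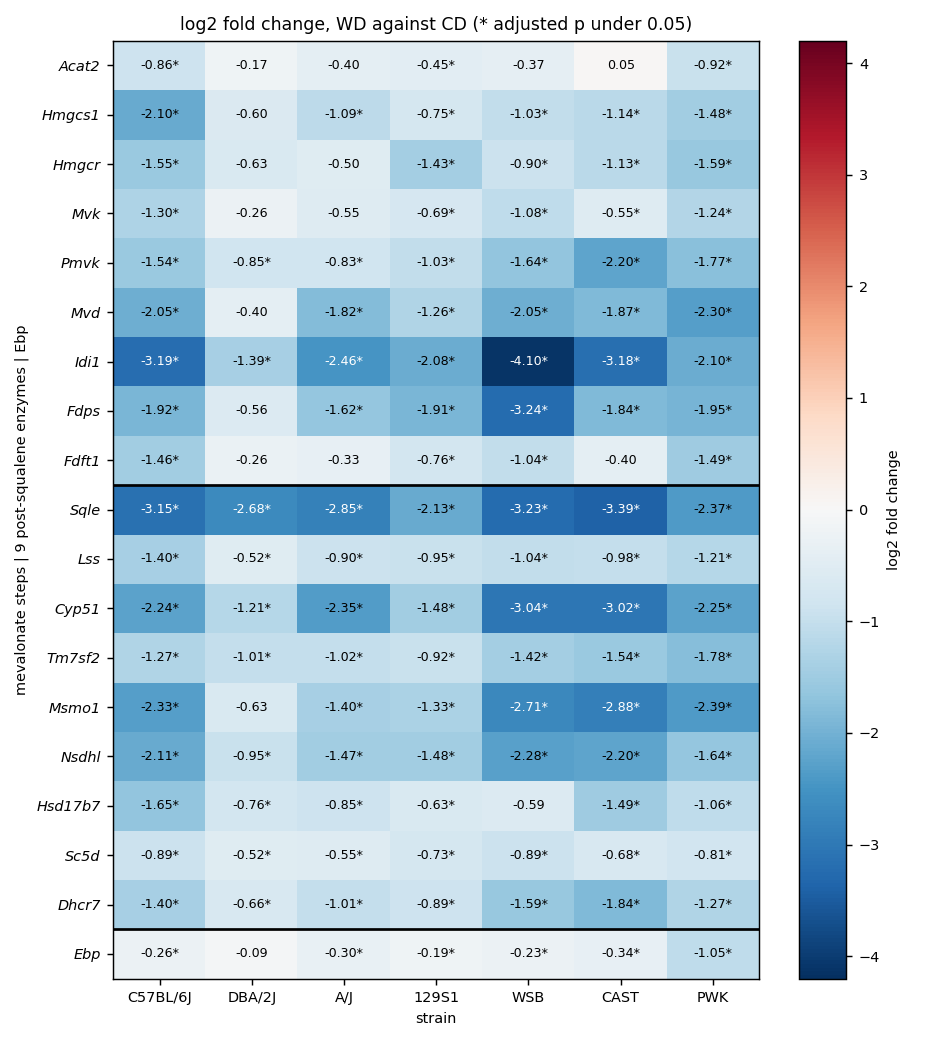
Log2 fold change, WD against CD, of cholesterol synthesis enzymes in the 7 strains, in the order of 9 mevalonate steps, the 9 post-squalene members and Ebp, with an asterisk where the adjusted p was below 0.05. The deepest cell is Idi1 in WSB/EiJ (-4.10), and Ebp lies between -0.34 and -0.09 except in PWK/PhJ (-1.05).

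Partners of the enzymes split. Lbr, whose product shares the reductase step with Tm7sf2, fell in all 7 strains (-0.31 to -0.65), and Erg28, the scaffold of the demethylation enzymes, in 6 (-1.16 in PWK/PhJ). Por, the reductase that feeds electrons to Cyp51 and Sqle, passed the test in DBA/2J only, where it was higher (0.77). Pgrmc1, a haem-binding partner of cytochromes P450, was higher in 5 strains (0.20 to 0.48). Of the 8 listed partners, 7 were found by symbol.

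Genes of SREBP2 control and sterol uptake were mixed. Of 10, those lower on WD numbered 6 in PWK/PhJ (14.5% of all genes), A/J (4.64%), C57BL/6J (11.9%) and 129S1/SvImJ (13.6%). They numbered 5 in WSB/EiJ (3.97%), DBA/2J (7.77%) and CAST/EiJ (9.73%). Insig1, which holds SREBP2 back when sterol is high, fell in all 7 strains (median -1.28) and the sterol carrier Stard4 in 6 (-0.88). Srebf2 itself, named after its values were seen, fell in all 7, between -0.36 and -0.82. Srebf1, the factor of fatty acid synthesis, was higher in 5 strains (C57BL/6J 1.18, A/J 0.90, CAST/EiJ 0.77, DBA/2J 0.73 and PWK/PhJ 0.70) and lower in 129S1/SvImJ (-0.69), and Mbtps1 was higher in WSB/EiJ (0.14).

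LXR is the receptor for oxidised sterols. Of 8 genes listed for it, those higher on WD numbered 5 in CAST/EiJ, where 9.77% of all genes were higher, and 5 in C57BL/6J (14.3%). They numbered 4 in WSB/EiJ (4.97%), 4 in PWK/PhJ (15.1%), 3 in A/J (4.39%), 2 in 129S1/SvImJ (14.5%) and 2 in DBA/2J (10.2%). The sterol exporters Abcg1 (median 0.91) and Abcg5 (0.84) were each higher in 6 strains, and the desaturase Scd1 (0.94) in 5. Lower were Lpcat3 in CAST/EiJ (-0.49) and Nr1h3, a gene of LXR itself, in PWK/PhJ (-0.15).

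Markers of other cells moved in some strains beside the fall of the enzymes. Of 10 leukocyte markers, 9 were higher on WD in 129S1/SvImJ (14.5% of all genes), 7 in C57BL/6J (14.3%) and 6 in PWK/PhJ (15.1%). Those higher numbered 4 in WSB/EiJ (4.97%), 2 in A/J (4.39%), 1 in CAST/EiJ (9.77%) and 0 in DBA/2J (10.2%). Their summed level over all mice was between 52.0 CPM (PWK/PhJ CD replicate 5) and 884 CPM (A/J WD replicate 3). The other A/J mice on WD had 195 to 290 CPM. Of 6 cholangiocyte markers, 5 were higher in PWK/PhJ, where they summed to 64.6 to 140.4 CPM on CD-TN and 159 to 528 CPM on WD-TN. These sums were also apart in 129S1/SvImJ, with 21.5 to 43.2 CPM on CD-TN and 59.8 to 102 CPM on WD-TN. The same held in CAST/EiJ (22.5 to 34.4 and 34.9 to 62.3 CPM) and WSB/EiJ (17.4 to 26.8 and 27.8 to 32.3 CPM). The diets overlapped in C57BL/6J, DBA/2J and A/J. In CAST/EiJ, the strain with the deepest median fall of the members, leukocyte markers summed to 90.2 to 128 CPM on CD-TN and 92.0 to 195 CPM on WD-TN. In DBA/2J, with the smallest, they summed to 159 to 214 CPM and 121 to 217 CPM. Of 8 stellate cell markers, 5 were higher in PWK/PhJ (15.1% of all genes) and 1 was lower (14.5%). They summed there to 271 to 446 CPM on CD-TN and 486 to 738 CPM on WD-TN, without overlap. In the other strains at most 3 were higher, and these sums overlapped between the diets. Called Kupffer and endothelial cell markers numbered at most 2 of 6 in either direction in any strain.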

How the data were processed

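The authors deposited raw read counts per gene, made per the labels and the study's methods from BGISEQ-500 reads of liver RNA aligned with STAR 2.7.1a (submitters' processing notes) to GRCm38. The annotation release and strand setting are not given in the sources used here. The deposited counts included summary rows (unmapped, multimapping, ambiguous and no feature; 19.9% to 34.7% of reads), which were left out. Genes were filtered with a minimum count of 10, scaled by TMM and tested in 1 limma-voom fit of 14 group means (R 4.3.3, limma 3.58.1, edgeR 4.0.16, DESeq2 1.42.0), with Benjamini-Hochberg adjustment within each contrast at 0.05. Log2 CPM had a prior count of 2. The fit was tested on simulated data. The members and gene lists were chosen with earlier results of these data known. All members were named, plus from each other list up to 3 genes by median change, genes called against their list's direction, and the 5 genes most like the members by mean Pearson's r. Some genes that this rule names are not reported here. Alternatives were other normalizations, filters, tests, weights, covariates and leaving out mice.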

Additional observations from a re-analysis of the deposited data

Results flagged for a closer look

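In 7 of 126 sets of a gene and a group, 1 mouse lay far from the others by Dixon's ratio of its gap to the range, where chance gives about 1 in 20. The ratios are of log2 CPM, and the levels beside them are in CPM. For Lss in WSB/EiJ on WD, replicate 4 was lowest (ratio 0.808), at 12.7 CPM against 17.8 to 19.3, and the same mouse was lowest for Msmo1 (0.658), at 8.25 CPM against 10.3 to 11.6. For Cyp51 in DBA/2J on WD, replicate 5 was highest (0.710), at 67.2 CPM against 34.1 to 41.5. Tm7sf2 had a low mouse in 3 groups, C57BL/6J WD replicate 3 (0.570), at 23.1 CPM against 35.5 to 48.9, CAST/EiJ CD replicate 4 (0.786), at 64.5 CPM against 97.2 to 109, and 129S1/SvImJ WD replicate 2 (0.697), at 42.6 CPM against 51.5 to 55.8. For Nsdhl in WSB/EiJ on CD, replicate 1 was lowest (0.641), at 17.9 CPM against 51.6 to 93.4.

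The diet effect differed between strains by the limma F test for Cyp51 (adjusted p = 1.9e-06), Msmo1 (8.2e-06), Dhcr7 (0.0014), Hsd17b7 (0.0022), Nsdhl (0.0033) and Tm7sf2 (0.0043). Against the mean of the other strains, the difference in log2 fold change passed the test in DBA/2J for Cyp51 (1.18), Msmo1 (1.54), Nsdhl (0.92) and Dhcr7 (0.67). It passed in CAST/EiJ for Cyp51 (-0.93), Msmo1 (-1.08), Hsd17b7 (-0.57) and Dhcr7 (-0.71), in C57BL/6J for Hsd17b7 (-0.75), in 129S1/SvImJ for Cyp51 (0.88) and in PWK/PhJ for Tm7sf2 (-0.58).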

How the results depend on the processing

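No log2 fold change of a member, WD against CD, changed direction under any alternative run. On CD, the order of PWK/PhJ and C57BL/6J did change for Sqle, Cyp51 and Msmo1 without PWK/PhJ CD replicate 3. Members called lower on WD ranged, with 1 mouse left out, from 6 to 9 in DBA/2J, 8 to 9 in A/J, 8 to 9 in WSB/EiJ and 9 to 9 in the other 4 strains. Members whose diet effects were unequal ranged from 6 to 7, those unequal between strains on CD from 8 to 9 and on WD from 9 to 9. Members that differed from the other strains ranged from 1 to 2 in C57BL/6J (2 without PWK/PhJ CD replicate 3), 2 to 5 in DBA/2J (2 without its CD replicate 2), 0 to 0 in A/J, 1 to 2 in 129S1/SvImJ (2 without C57BL/6J CD replicate 2), 0 to 3 in WSB/EiJ (3 without its CD replicate 1), 3 to 4 in CAST/EiJ and 1 to 1 in PWK/PhJ. With no filter beyond any count these numbered 0 in C57BL/6J, 2 in DBA/2J, 0 in 129S1/SvImJ and 0 in CAST/EiJ, with many more genes in the adjustment. They numbered 4 in 129S1/SvImJ with sample quality weights, and 2 there and 1 in WSB/EiJ with the 3 libraries that stood apart left out, an alternative chosen after seeing the data. In WSB/EiJ they numbered 1 with edgeR, 1 with at least 10 counts in every mouse, 1 with RIN and 1 with cohort as a covariate, and the cause was not tested. No paired analysis was possible because the labels give no replicate numbers, and numbers given in accession order pair no mice. Sqle had the lowest count of the members, with 163 reads in its lowest mouse.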
